A study of Mus musculus with 8 samples.

Results

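The clustered protocadherins were examined in fully grown germinal vesicle (GV) stage mouse oocytes that lacked the deadenylases CNOT7 and CNOT8. CNOT7 and CNOT8 are the catalytic subunits of the CCR4–NOT complex that shorten the poly(A) tails of mRNAs. Members were chosen by name alone, as every row of the count table whose symbol was Pcdha, Pcdhac, Pcdhb, Pcdhga, Pcdhgb or Pcdhgc followed by an isoform number. This gave 59 of 46078 rows, of which 15 belonged to the alpha, 22 to the beta and 22 to the gamma cluster. The 59 rows carried 56 different symbols, because Pcdha4, Pcdha11 and Pcdhga8 were each listed under a pair of gene IDs. In GENCODE vM21, an annotation of the build the files use, one of the Pcdha4 rows was Gm42416, a gene model that runs from the alpha into the gamma cluster, and one of the Pcdhga8 rows was Pcdhgc4. It is called the Pcdhgc4 row below.

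The study compared 4 libraries of CNOT7&8 KO oocytes with 4 Zp3-Cre control libraries, and every library was prepared from 100 oocytes. The KO females were homozygous for floxed Cnot7 and floxed Cnot8 and carried the Zp3-Cre transgene, whose promoter drives Cre in growing oocytes only. Control females carried Zp3-Cre. All females had a C57BL/6J background, were 4 weeks old and had received pregnant mare serum gonadotropin 48 h before collection. Cumulus cells were removed with hyaluronidase and pipetting, and the oocytes were kept in dibutyryl-cAMP, which holds them at the GV stage. The labels do not say whether the libraries of a group came from separate animals, so the p-values measure the spread between these libraries.

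Clustered protocadherins are cadherin-like cell-surface proteins best known from neurons, where each cell uses its own small set of isoforms and identical isoforms on facing membranes bind each other, which lets a neurite tell itself from its neighbours. Each alpha and each gamma isoform has its own first exon, with its own promoter, that encodes the extracellular domains, the transmembrane segment and a short cytoplasmic part, and this exon is spliced to constant exons shared by the whole cluster. Beta isoforms have no constant exons. Promoter choice in neurons depends on DNA methylation, on CTCF and cohesin, and on repressors such as SMCHD1 and SETDB1.

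The clusters lie in tandem on the plus strand of chromosome 18 (GRCm38), from 36930184 to 37841873, a stretch of 911.7 kb. The alpha isoforms start from position 36930184 and end in common at about 37187661, the beta genes fill 37264938 to 37524479, and the gamma isoforms fill 37661793 to 37841873. How well reads can be assigned differed between the clusters. Of the 100-base windows in a gene's annotated transcripts, 92.3 to 100% occurred in no other gene for the beta members other than Pcdhb12. At Pcdhb12 the share was 37.7%, and 1927 of its exonic bases overlapped an antisense transcript. For the alpha isoforms the share was at most 52.3% and for the gamma isoforms at most 68.2%, since the rest lies in the constant exons or in other overlapping gene models. The share was lowest where antisense transcripts overlap an isoform's own exon, as at Pcdhga10 with 2.1%. Counts of alpha and gamma isoforms are therefore uncertain to the extent that the counting split or dropped reads from these parts.

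The total count per library was 14943671 to 44092144 in control and 8639444 to 26784110 in KO oocytes. At this depth 3 counts corresponded to 0.0802 to 0.219 CPM (the count of a gene relative to the TMM-scaled library size) in control libraries and to 0.102 to 0.326 CPM in the KO libraries. Cnot8 mRNA was 168 ± 20.01 CPM in control and 35.2 ± 1.40 CPM in KO oocytes (mean ± SD, n = 4), and Cnot7 mRNA was 933 ± 77.3 and 719 ± 70.8 CPM, with no overlap between the groups for either gene. Counts were summed over whole genes, so RNA made from the part outside the deleted exons was included. The oocyte markers Gdf9 (4401 and 4186 CPM on average in control and KO) and Bmp15 (3370 and 3078 CPM) were abundant in both groups. Of the 12 oocyte markers listed, all were tested and 0 were called, but at the FDR threshold alone 7 were lower and 1 higher, and their sum was 22479 to 26115 CPM in control and 18304 to 21178 CPM in the KO libraries, without overlap. Of 19241 genes tested, 4582 were upregulated and 1263 downregulated.

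Clustered protocadherin mRNA was scarce in control oocytes and higher in KO oocytes. Summed over the 59 rows, control libraries R1 to R4 held 3.21, 3.31, 3.74 and 3.13 CPM, and KO libraries R1 to R4 held 11.8, 12, 9.74 and 11.4 CPM. Every KO library was above every control library, and the ratio of the means was 3.36. In raw counts, these sums came from 120, 67, 55 and 43 reads in control and 109, 218, 158 and 336 reads in KO libraries. The measured RNA comes from 100 pooled oocytes, so a few oocytes or attached cells with much of an mRNA and many with a little of it cannot be told apart, nor can fewer cells of a type and less RNA per cell.

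**Figure D1:**
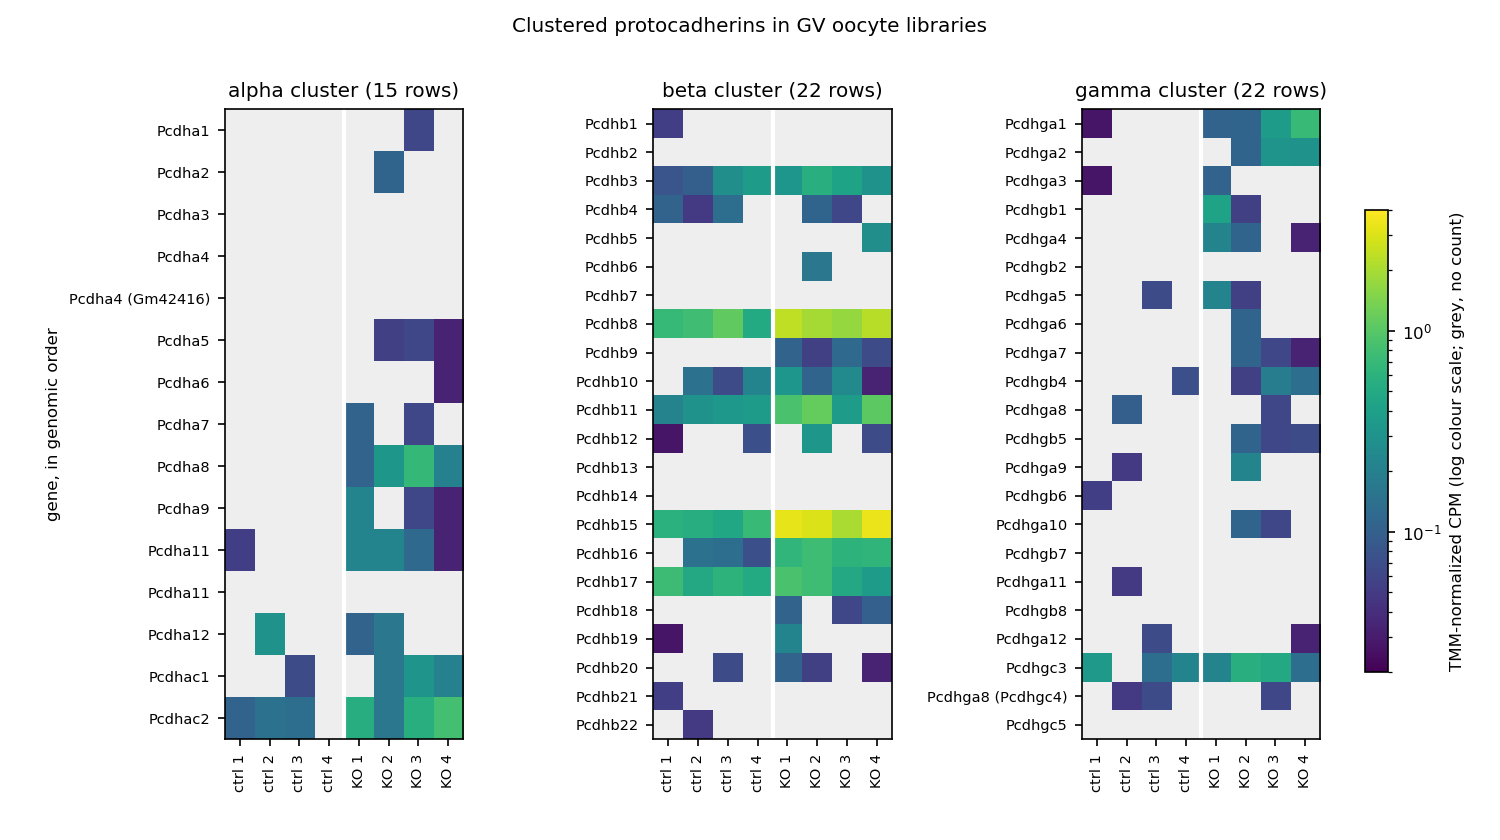
Each row of the map is a clustered protocadherin in genomic order and each column a library (ctrl, Zp3-Cre control; KO, CNOT7&8 KO), coloured by TMM-normalized CPM on a log scale, with grey where no read was counted. The beta members Pcdhb8 and Pcdhb15 are the brightest rows in the KO libraries, and 12 of the 59 rows are grey in all 8 libraries.

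More isoforms were seen in KO oocytes, although the KO libraries held fewer reads in all. Control libraries R1 to R4 had at least 1 count for 16, 15, 15 and 10 of the 59 rows, and KO libraries R1 to R4 for 23, 31, 27 and 27. The ranges did not overlap. Over the 8 libraries, 12 rows had no count, 18 had counts only in KO, 5 only in control and 24 in both groups. Most of these detections rested on very few reads. Only 9 rows reached more than 3 counts in any control library and 19 in any KO library, and 7 rows did so in both groups.

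Of the 59 rows, 14 passed the expression filter of at least 0.2 CPM in 2 or more libraries. They were 4 alpha, 7 beta and 3 gamma isoforms. The filter can be passed by the KO libraries alone, and a member that did so had to be higher in KO: this held for 7 of the 14, while 6 passed in at least 2 control libraries and 1 passed with 1 control library and 2 KO libraries. By edgeR's quasi-likelihood test, with differentially expressed genes (DEGs) defined by a false discovery rate (FDR) of at most 0.05 and a change of at least 2-fold, 9 members were upregulated and 0 downregulated. With no fold threshold the counts were the same, 9 higher and 0 lower. Over all genes tested, 23.8% were upregulated and 6.56% downregulated, and among genes with a mean under 1 CPM 35.5% were upregulated and 3.27% downregulated. Of the 6 members that passed in control libraries, 3 were upregulated (Pcdhb8, Pcdhb11 and Pcdhb15), and of the other 8, 6 were.

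The median log2 fold change of the 14 tested members was 2.31, and it stayed at 2.31 with Pcdha8 and Pcdhga2, which had no control count, at their lower bounds. The median over all genes tested was 0.12, and over genes under 1 CPM it was 1.05. For the 6 members that passed in control libraries, the median was 1.28. In 7 of the 14 tested members KO was higher without overlap, several of which passed the filter through KO libraries alone; this held for 27% of all genes tested and for 28.2% of those under 1 CPM. The 45 rows that did not pass the filter held 34 counts in control and 98 in KO libraries together, with at most 8 in any library.

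**Figure D2:**
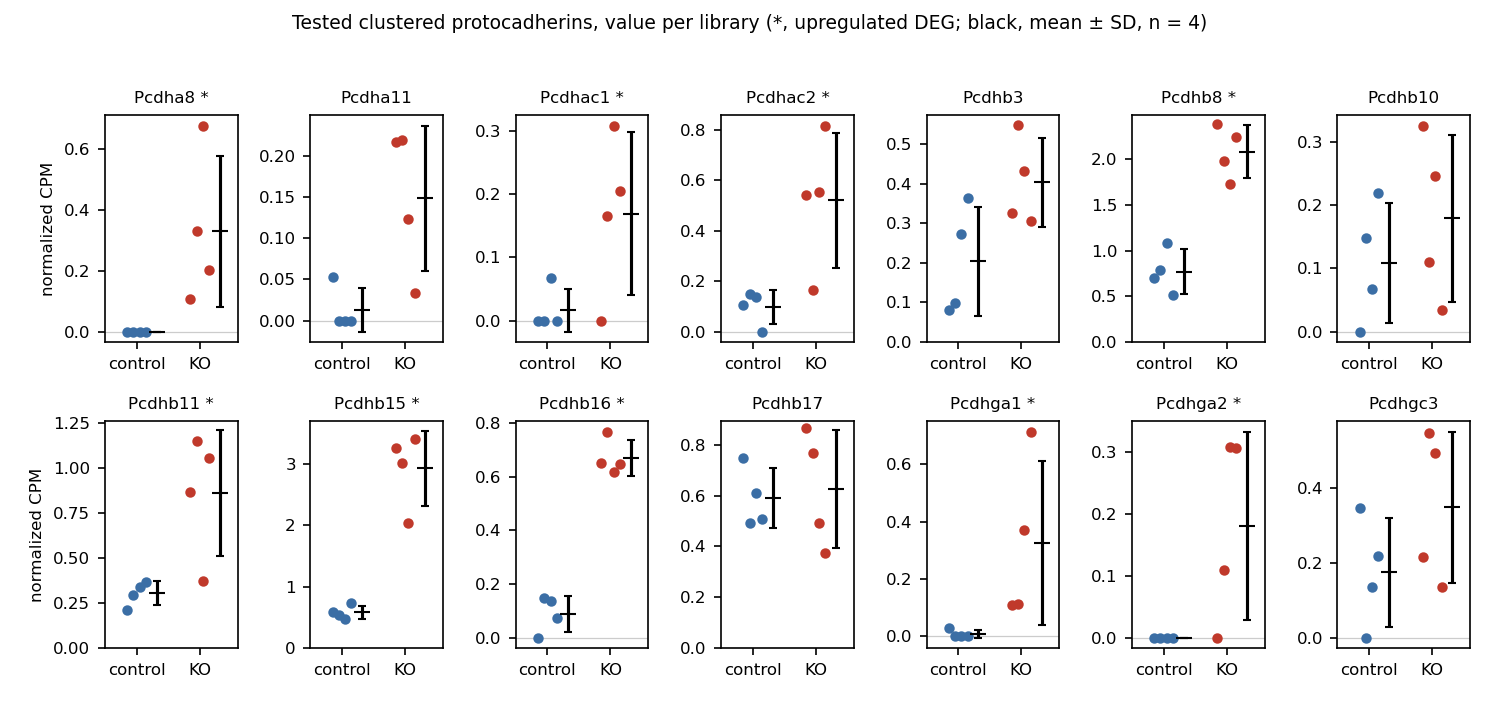
Each panel shows a tested clustered protocadherin, with one point per library (normalized CPM on a linear axis whose range differs between panels) for control (blue) and KO (red), and the mean ± SD of 4 libraries in black; a star marks the 9 upregulated DEGs. The groups do not overlap for Pcdha8, Pcdhac2, Pcdhb8, Pcdhb11, Pcdhb15, Pcdhb16 and Pcdhga1, and for Pcdhb17 the KO range contains the control range.

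The alpha cluster was nearly silent in control oocytes. Its summed level was 0.160, 0.444, 0.204 and 0 CPM in control libraries R1 to R4 and 1.30, 1.21, 1.91 and 1.36 CPM in the KO libraries R1 to R4, a 7.15-fold difference of the means without overlap. The log2 ratio of 2.84 was 3.57 without control R2, which held 9 of the 18 control reads. In reads the KO libraries held 105. Of the 15 alpha rows, 4 were tested and 3 were upregulated, with a median log2 fold change of 2.85, or 2.78 with Pcdha8 at its lower bound. All 4 passed the filter through KO libraries alone.

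Pcdha8 had the highest mean level among the variable alpha isoforms, those other than the C types. No read was counted in the 4 control libraries, and KO libraries R1 to R4 had 1, 6, 11 and 6 reads, or 0.109, 0.330, 0.678 and 0.204 CPM. Every KO library was above the control libraries. Relative to a floor of 3 counts over the control group, Pcdha8 was at least 9.44-fold higher in KO oocytes, the exact 95% counting interval of the pooled ratio began at 7.10, and the test gave FDR = 0.0033.

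Pcdha11 (ENSMUSG00000007440) was the next tested alpha isoform, with 2, 0, 0 and 0 reads in control and 2, 4, 2 and 1 reads in KO libraries R1 to R4. Its highest control value, 0.0535 CPM in R1, lay above its lowest KO value, 0.0341 CPM in R4, so the groups overlapped. The log2 fold change was 2.33 ± 1.06 (SE) with FDR = 0.0802, which did not pass the threshold. Without control R1, which held both control reads, it was 4.29 with FDR = 0.0453, and without KO R4 it was 2.79 with FDR = 0.0344, both past the threshold. The other row of the same symbol, whose exons overlap an antisense transcript over 3338 bases, had no count.

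The remaining variable alpha isoforms gave only traces. Pcdha12 had 6 reads in control R2, none in the other control libraries, and 1, 3, 0 and 0 reads in KO libraries R1 to R4, and its exons overlap the antisense transcript Gm10545 over 531 bases. Pcdha1, the first isoform of the cluster, had 1 read in KO R3 and no other. Of the rest, Pcdha2, Pcdha5, Pcdha6, Pcdha7 and Pcdha9 had 1 to 4 reads each over the KO libraries and none in control, and Pcdha3 and both rows of Pcdha4 had none at all.

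The C-type isoforms Pcdhac1 and Pcdhac2 close the alpha cluster, and in neurons they are regulated apart from the variable isoforms. Pcdhac2 had 4, 3, 2 and 0 reads in control and 5, 3, 9 and 24 reads in KO libraries R1 to R4, or 0.107, 0.148, 0.136 and 0 CPM against 0.543, 0.165, 0.555 and 0.817 CPM. KO R2 was only slightly above the highest control library and the other KO libraries were well above it. The log2 fold change was 2.30 ± 0.67 (SE), FDR = 0.0120.

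Pcdhac1 had a single read in the control group, in R3, and 0, 3, 5 and 6 reads in KO libraries R1 to R4. KO R1, the shallowest library, had none, so the groups overlapped. The ratio of the pooled counts, scaled to depth, was 16.5 with a 95% interval of 2.51 to 698 that covers counting error only, and FDR was 0.0233. The call was lost at FDR = 0.0707 without control R1 and at FDR = 0.0572 without control R2, and the fitted log2 fold change of 3.37 became 4.98 without control R3, which held the only control read.

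The beta cluster held most of the clustered protocadherin reads in both groups, with 82.8% of 285 reads in control (95% Wilson interval 78.0 to 86.7%) and 73.4% of 821 reads in KO libraries (70.3 to 76.4%). These intervals cover counting error only. The summed beta level was 2.59, 2.62, 3.20 and 2.84 CPM in control libraries R1 to R4 and 9.23, 9.06, 6.17 and 8.62 CPM in the KO libraries R1 to R4, a 2.94-fold difference of the means without overlap. Of 22 beta genes, 7 were tested and 4 were upregulated, with a median log2 fold change of 1.43. Of these 4, Pcdhb16 passed the expression filter through KO libraries alone. Beta genes have no shared constant exons, so their counts are the least affected by assignment between members.

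Pcdhb15 had the largest number of reads in KO oocytes. Its level was 0.588, 0.543, 0.476 and 0.728 CPM in control and 3.26, 3.02, 2.04 and 3.41 CPM in the KO libraries R1 to R4, from 7 to 22 and 30 to 100 reads. The lowest KO library was well above the highest control library. The log2 fold change was 2.32 ± 0.29 (SE), FDR = 3.6e-05, and an exact permutation test over the 70 assignments of libraries gave a two-sided p of 0.0286, the smallest it can give.

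Pcdhb8 was the member with the most reads in control oocytes. Its level was 0.695, 0.790, 1.09 and 0.510 CPM in control and 2.39, 1.98, 1.73 and 2.25 CPM in the KO libraries R1 to R4, again without overlap. The log2 fold change was 1.43 ± 0.30 (SE), FDR = 0.0016. Pcdhb8 and Pcdhb15 together made up 40.4% of the clustered protocadherin reads in control (34.8 to 46.1%) and 45.1% in KO libraries (41.7 to 48.5%), and the single libraries of the groups overlapped.

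Pcdhb16, the next gene after Pcdhb15, had 0, 3, 2 and 1 reads in control and 6, 14, 10 and 19 reads in KO libraries R1 to R4. The KO levels were the most even of all upregulated members, at 0.652, 0.769, 0.617 and 0.647 CPM, and all were above the highest control value of 0.148 CPM. Pcdhb16 passed the expression filter through KO libraries alone, so it had to be higher in KO. The log2 fold change was 3.05 ± 0.68 (SE), FDR = 0.0024. Without control R1, the library with no read, it was 2.39.

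Pcdhb17, the gene after Pcdhb16, had the next highest mean level and did not pass the test. Its level was 0.749, 0.494, 0.612 and 0.510 CPM in control and 0.869, 0.769, 0.493 and 0.375 CPM in the KO libraries R1 to R4. The KO range was wider than the control range and contained it, and the log2 fold change was -0.00 ± 0.24 (SE), FDR = 0.998, with a sign that changed between scalings. Its share of the clustered protocadherin reads was 18.9% in control (14.8 to 23.9%) and 5.0% in KO libraries (3.7 to 6.7%), with 14.9 to 23.3% in single control and 3.3 to 7.3% in single KO libraries.

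The other 3 tested beta genes that follow, with Pcdhb9, were named after their values were seen. Pcdhb11 was at 0.214, 0.296, 0.340 and 0.364 CPM in control and 0.869, 1.15, 0.370 and 1.06 CPM in the KO libraries R1 to R4. KO R3 was only just above the control range, and the log2 fold change was 1.56 ± 0.46 (SE), FDR = 0.0118. Pcdhb3 had 14 reads in control and 29 in KO libraries, with overlapping groups and a log2 fold change of 1.13 ± 0.60 (SE), FDR = 0.125. Pcdhb10 had 7 and 10 reads, with a log2 fold change of 0.70 ± 1.01 (SE), FDR = 0.575, which was 0.08 without control R1.

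Among the 15 untested beta genes, Pcdhb9 was seen in every KO library, with 1, 1, 2 and 2 reads in R1 to R4, and in no control library. It was at least 2.36-fold higher in KO oocytes over the floor of 3 control counts, with an exact counting interval that began at 1.39, and it was called when no expression filter was used. Pcdhb1, which begins the cluster, had 2 reads in control R1, and Pcdhb22, which ends it, had 1 read in control R2; neither had a read in KO libraries. Pcdhb2, Pcdhb7, Pcdhb13 and Pcdhb14 had no count in any library.

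Levels of different members can be compared only per length. Per kilobase of sequence found in no other gene, Pcdhb15 and Pcdhb8 were the highest tested members in KO oocytes, at 1.08 and 0.615 CPM per kb, followed by Pcdhb11 at 0.201, Pcdhgc3 at 0.173, Pcdhac2 at 0.172, Pcdha8 at 0.141, Pcdhb17 at 0.138 and Pcdhb16 at 0.131. From Pcdhb11 down, the ranges over the KO libraries overlapped, so these members cannot be ranked. In control oocytes Pcdhb8 and Pcdhb15 were at 0.227 and 0.216 CPM per kb and Pcdhb17 at 0.130. If reads from constant exons were counted, these values overstate the alpha and gamma isoforms.

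The gamma cluster was low in control and higher in KO oocytes. Its summed level was 0.454, 0.247, 0.340 and 0.291 CPM in control libraries R1 to R4 and 1.30, 1.70, 1.67 and 1.46 CPM in the KO libraries R1 to R4, a 4.60-fold difference of the means without overlap, from 31 and 113 reads. Of 22 gamma rows, 3 were tested and 2 were upregulated, and the median log2 fold change of 4.39 was 2.65 with Pcdhga2 at its lower bound. The upregulated members were the first and second isoforms of the cluster. Both passed the expression filter through KO libraries alone, so they had to be higher in KO. Without KO R3 or without KO R4 neither passed the expression filter, and 0 gamma members were then upregulated.

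Pcdhga1 had 1 read in control R1, none in the other control libraries, and 1, 2, 6 and 21 reads in KO libraries R1 to R4, or 0.109, 0.110, 0.370 and 0.715 CPM. The groups did not overlap, and KO R4 held most of the reads. The ratio of the pooled counts was 35.4 with a 95% counting interval of 5.88 to 1444, and FDR was 0.0032. Its fitted log2 fold change was 4.39 and was 5.68 without control R1.

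Pcdhga2 had no read in control and 0, 2, 5 and 9 reads in KO libraries R1 to R4. KO R1 matched the control libraries, and the other KO libraries were above them. It was at least 6.29-fold higher in KO oocytes over the floor, with an exact counting interval that began at 4.55, FDR = 0.0119.

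The other gamma A and gamma B isoforms had at most 4 reads in any library. Pcdhga4 had 2, 2, 0 and 1 reads in KO libraries R1 to R4, Pcdhgb1 had 4, 1, 0 and 0, Pcdhgb4 had 0, 1, 3 and 4, and Pcdhgb5 had 0, 2, 1 and 2. In control oocytes Pcdhgb4 had 1 read and the other 3 had none. Pcdhgb2, Pcdhgb7 and Pcdhgb8, which is annotated as a polymorphic pseudogene, had no count.

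None of the gamma C types, which follow the variable isoforms, was called. Pcdhgc3 was the gamma isoform with the most reads in control oocytes, with 13, 0, 2 and 3 reads there and 2, 10, 8 and 4 reads in KO libraries R1 to R4. The groups overlapped, and the log2 fold change was 0.85 ± 0.76 (SE), FDR = 0.362. Without control R1, which held 13 of the 18 control reads, it was 1.63 and was not called either. Its exons overlap transcripts of the opposite strand over 1559 bases. The Pcdhgc4 row had 2 reads in control and 1 in KO libraries, and Pcdhgc5, the last isoform, had none.

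**Figure D3:**
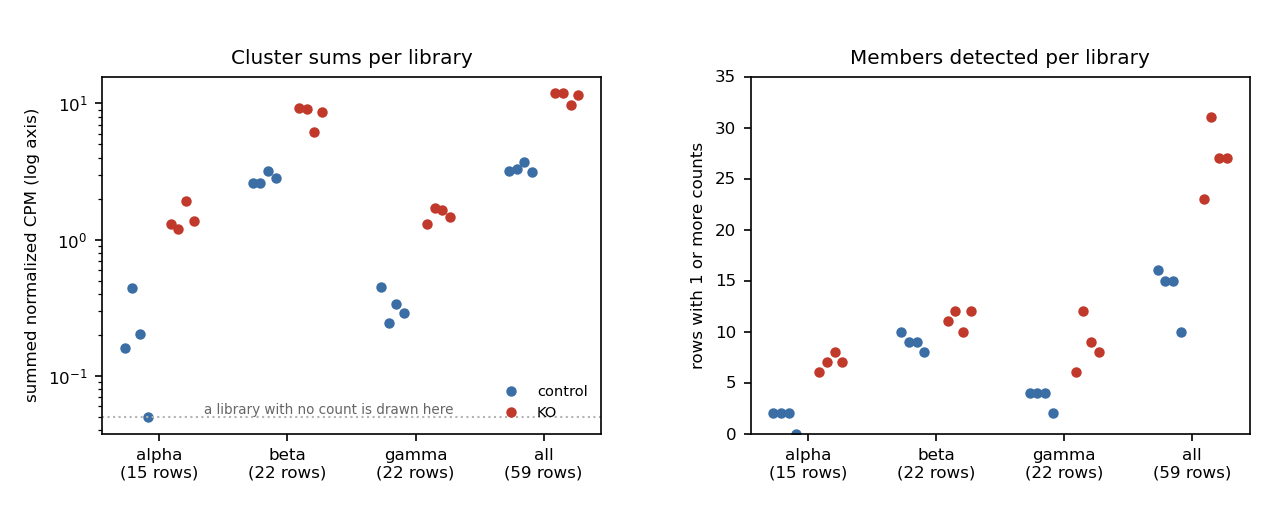
The left panel plots the summed normalized CPM per library (log axis; a library without a count is drawn on the dotted line) and the right panel the number of rows with at least 1 count, for the alpha, beta and gamma clusters and all 59 rows, in control (blue) and KO (red). The KO sums lie above the control sums in every cluster, while the numbers of beta genes detected, 8 to 10 in control and 10 to 12 in KO, touch.

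The makeup of the clustered protocadherin reads can be compared between groups as shares. Alpha reads were 6.3% of the total in control (4.0 to 9.8%) and 12.8% in KO libraries (10.7 to 15.2%), and gamma reads were 10.9% (7.8 to 15%) and 13.8% (11.6 to 16.3%). These intervals pool the reads of a group. Per library the alpha share was 5.0, 13.4, 5.5 and 0% in control R1 to R4 and 11, 10.1, 19.6 and 11.9% in KO R1 to R4, so the groups overlapped, with control R2 above all KO libraries but R3. The gamma share was 7.5 to 14.2% in control and 11 to 17.1% in KO libraries, also with overlap. The number of isoforms detected differed least in the beta cluster, with 8 to 10 in control and 10 to 12 in KO libraries, against 0 to 2 and 6 to 8 for alpha and 2 to 4 and 6 to 12 for gamma. Detection of an isoform depends on depth, and the deepest library was control R1.

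Other genes of the same stretch of chromosome 18 did not move as a block. Between or within 500 kb of the clusters lay 63 other rows, of which 28 were tested, 9 were upregulated and 1 was downregulated, against 23.8% and 6.56% of all genes tested, with a median log2 fold change of -0.14. Inside the clusters 5 were tested and 3 upregulated, and outside 23 were tested and 6 upregulated. Of the upregulated genes inside, 3222401L13Rik and Slc25a2 passed the expression filter through KO libraries alone, so they had to be higher in KO. In the plot along the region, the genes just before the alpha cluster lie mostly below 0.

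**Figure D4:**
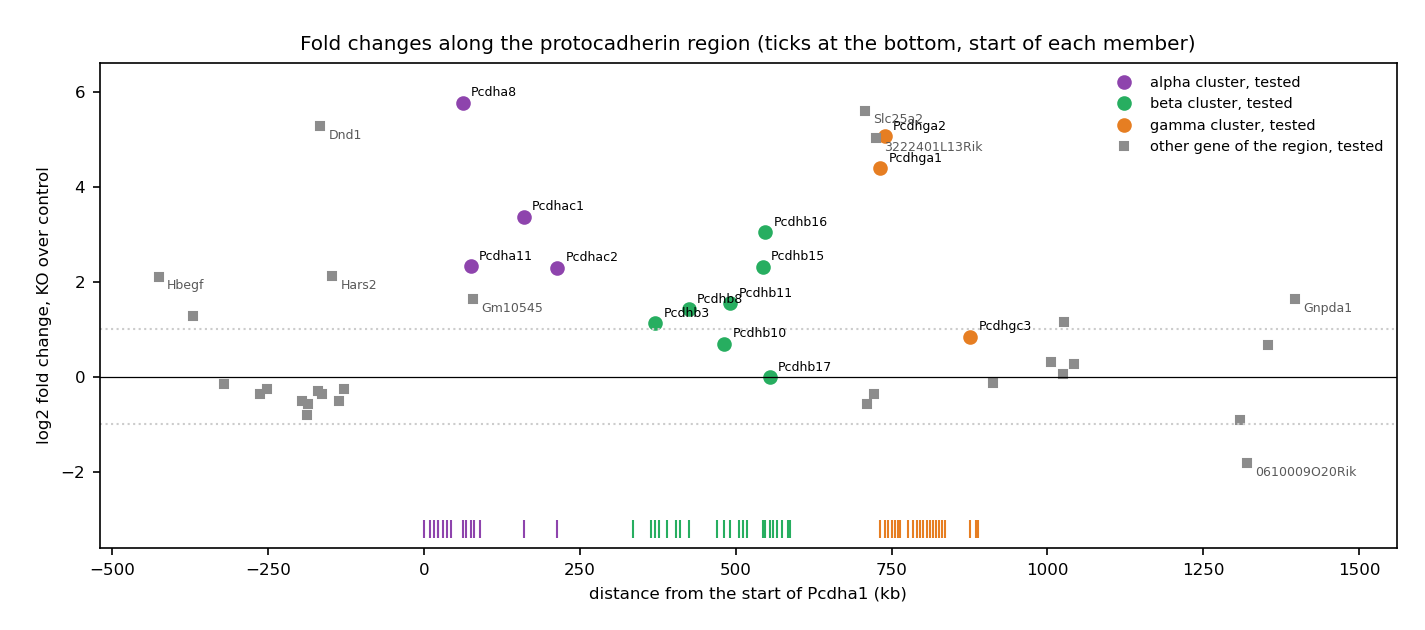
Log2 fold changes of tested genes (KO over control) are plotted against the distance of their annotated start from the start of Pcdha1, in kb, with alpha in purple, beta in green, gamma in orange and other genes in grey; ticks mark the start of every member and dotted lines a 2-fold change. Members lie at or above 0 across all 3 clusters, and the grey squares lie on both sides of 0.

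The lincRNA 3222401L13Rik, which ends at 37661742 on the plus strand, just before the start of Pcdhga1, had 7, 0, 3 and 1 reads in control and 42, 73, 39 and 170 reads in KO libraries R1 to R4. Every KO library was far above the control range, with a log2 fold change of 5.01 ± 0.51 (SE), FDR = 7.9e-06. Slc25a2, which encodes a mitochondrial ornithine carrier and lies between beta and gamma, had no read in control and 0.109, 0.165, 0.185 and 0.613 CPM in the KO libraries R1 to R4, FDR = 0.00459. Its neighbour Taf7, a subunit of the general transcription factor TFIID, was at 372 to 458 CPM in control and 257 to 289 CPM in KO oocytes, a log2 fold change of -0.57 ± 0.10 (SE) that did not reach 2-fold. Gm10545, antisense to alpha isoforms, was upregulated with a log2 fold change of 1.64 ± 0.61 (SE), FDR = 0.0364, a call that was lost in 8 of 17 alternative settings. Its log2 fold change was 2.23 without control R2.

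Outside the clusters the upregulated genes were Dnd1, which encodes an RNA-binding protein of germ cells, Hbegf, a ligand of the EGF receptor, Hars2, a mitochondrial histidyl-tRNA synthetase, Ankhd1, Fchsd1 and Gnpda1. Dnd1 rose from 0.0535 to 0.296 CPM in control to 3.0 to 6.48 CPM in the KO libraries, a log2 fold change of 5.27 ± 0.47 (SE), FDR = 3.0e-06, which was 6.16 without control R2. The downregulated gene was 0610009O20Rik, with a log2 fold change of -1.82 ± 0.25 (SE).

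Of 38 genes listed as known regulators of the clusters, 36 were in the table and 34 were tested; 3 were upregulated and 2 downregulated, against 23.8% and 6.56% of all genes tested. With no fold threshold 11 were higher and 9 lower, against 31.2% and 24.1% of all genes tested. The median log2 fold change was 0.04. The maintenance DNA methyltransferase gene Dnmt1 was at 4698, 4542, 3936 and 4515 CPM in control and 2089, 2089, 1731 and 1771 CPM in the KO libraries R1 to R4. The groups were far apart, with a log2 fold change of -1.20 ± 0.11 (SE), FDR = 3.8e-06.

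Uhrf1, which encodes the protein that recruits DNMT1 to DNA, was the other downregulated regulator, with a log2 fold change of -1.13 ± 0.17 (SE), FDR = 0.00016. Dnmt1 and Uhrf1 passed the FDR threshold in every setting but did not reach a 2-fold fall when libraries were scaled by total count or by TMM on genes of at least 10 CPM. The upregulated regulators were Ehmt2, a histone H3 lysine methyltransferase, with a log2 fold change of 1.79 ± 0.24 (SE), Tet2, a 5-methylcytosine dioxygenase, with 1.64 ± 0.18 (SE), and Lrif1, a partner of SMCHD1, with 1.36 ± 0.21 (SE). Ctcf was at 122 to 187 CPM in control and 159 to 203 CPM in the KO libraries, with overlapping groups and FDR = 0.135. Smchd1 was lower with a log2 fold change of -0.76 ± 0.16 (SE) and Dnmt3b with -0.79 ± 0.16 (SE), neither at 2-fold.

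Among 31 genes for proteins that bind, signal from or cleave clustered protocadherins, all tested, 3 were upregulated and 1 downregulated, against the same shares of all genes, with a median log2 fold change of -0.21. Ptk2b, which encodes the kinase PYK2, rose from 3.33 to 5.45 CPM in control to 28.0 to 32.6 CPM in the KO libraries, a log2 fold change of 2.64 ± 0.18 (SE), FDR = 3.7e-07. Ret, a receptor tyrosine kinase, and Pdcd10, a scaffold protein, were the other upregulated genes. Ret passed the expression filter through KO libraries alone. Cyfip1, a subunit of the WAVE complex, was downregulated, with a log2 fold change of -1.19 ± 0.14 (SE).

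**Figure D5:**
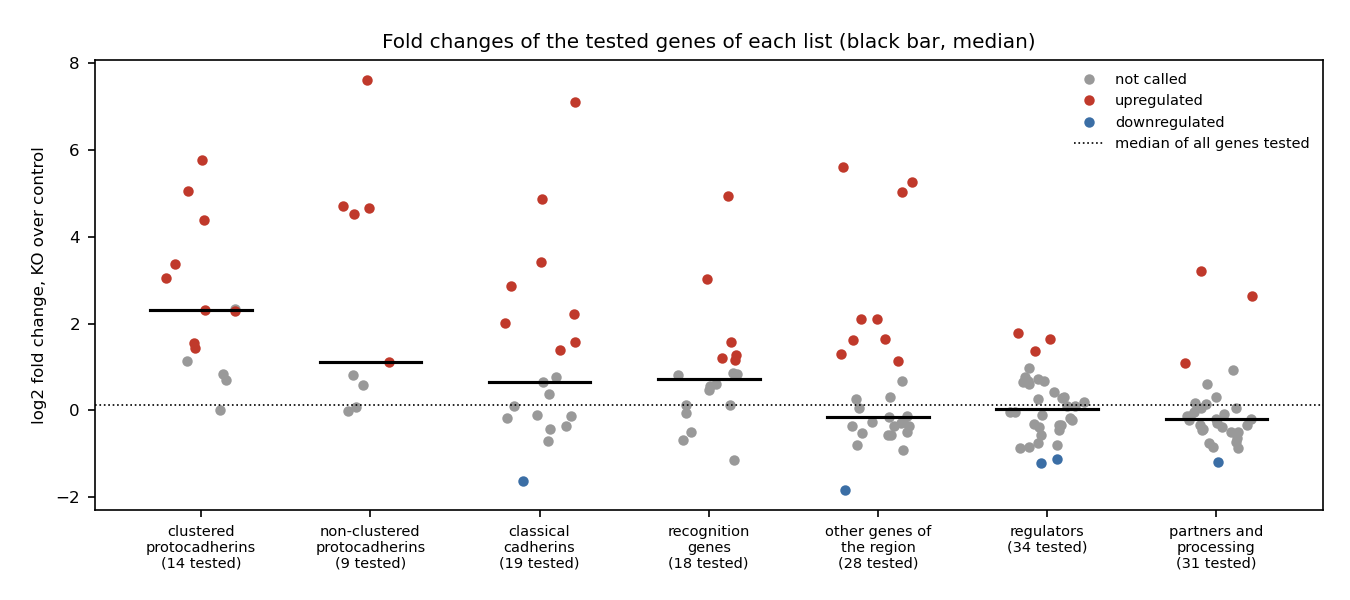
Log2 fold changes (KO over control) of the tested genes of 7 lists are shown as points, red for upregulated, blue for downregulated and grey for not called, with the median of each list as a black bar and the median of all tested genes, 0.12, as a dotted line. The median of the clustered protocadherins is 2.31, or 1.28 for the 6 that passed the expression filter in control libraries, and the medians of the regulators (0.04) and partners (-0.21) lie below that of all genes.

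Other adhesion genes of the cadherin superfamily and of neuronal recognition gave the following counts, to be read against 23.8% upregulated and 6.56% downregulated over all genes tested. Among genes with a mean under 1 CPM these shares were 35.5% and 3.27%. Of the 12 non-clustered protocadherins, 9 were tested, 5 were upregulated and 0 downregulated, with a median log2 fold change of 1.11. Of 23 classical and related cadherins, 19 were tested, 8 upregulated and 1, Cdh24, downregulated, with a median of 0.65. Of 24 rows of other neuronal recognition genes, 18 were tested, 6 upregulated and 0 downregulated, with a median of 0.72; the call of Dscaml1, named after its values were seen, was lost in 9 of 17 alternative settings. Pcdh8, Pcdh17, Pcdh11x, Cdh9, Cdh11, Cdh12 and Ncam2 passed the expression filter through KO libraries alone, so they had to be higher in KO. The other upregulated cadherins were Cdh2, Cdh7, Cdh8, Cdh10 and Cdh20. Besides Ncam2 and Dscaml1, the upregulated recognition genes were Fat3, Fat4, Tenm1 and Tenm4. The mean control levels of these further cadherins and recognition genes ran from 0.185 CPM (Cdh10) to 45.5 CPM (Cdh2). In KO oocytes Cdh10 was at 1.85 CPM and Cdh2 at 120 CPM on average. The lists were short and were not tested against each other.

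The non-clustered protocadherins, which are single genes on other chromosomes or elsewhere on chromosome 18, included upregulated genes of very low control level. Pcdh19, an X-linked gene, was at 1.02, 0.345, 0.680 and 0.510 CPM in control and 17.0, 14.8, 14.1 and 22.7 CPM in the KO libraries R1 to R4, a log2 fold change of 4.65 ± 0.30 (SE), FDR = 3.0e-07. Pcdh8, Pcdh17, Pcdh11x and Pcdh7 were also upregulated, all from under 0.5 CPM in every control library. The call of Pcdh7 (FDR = 0.0439) was lost in 8 of 17 alternative settings. The 3 members with the highest control levels were not called. Pcdh9 was at 187 to 286 CPM in control and 285 to 391 CPM in KO oocytes. Its log2 fold change of 0.58 ± 0.16 (SE) passed the FDR threshold (FDR = 0.00835) but did not reach 2-fold. Pcdh15 was at 58.0 to 70.7 and 66.5 to 70.4 CPM. Pcdh10, named after its values were seen, was at 6.22 to 8.39 and 6.61 to 8.08 CPM.

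The clustered protocadherins are also expressed outside the oocyte, so markers of other cells were measured in the same libraries. Of 15 granulosa and cumulus markers, 14 were tested, 6 were upregulated (Inha, Nr5a2, Gja1, Kitl, Inhba and Fshr) and 0 downregulated, against 23.8% and 6.56% of all genes tested. At the FDR threshold alone 6 were higher and 1, Cyp19a1, was lower, against 31.2% and 24.1% of all genes tested. Cyp19a1 was at 50.4 to 67.7 CPM in control and 23.5 to 38.1 CPM in the KO libraries. Its log2 fold change was -0.90 ± 0.16 (SE), FDR = 0.00051. The summed level of the granulosa and cumulus markers was 143 to 191 CPM in control and 230 to 332 CPM in the KO libraries. Foxl2, which was not tested, had at most 1 count in any library, and was at 0.0293 CPM in control and 0.0271 CPM in the KO libraries on average. KO R4 had the lowest granulosa sum of the KO libraries, 230 CPM, which was still above every control library. Of the upregulated markers, Inha (4.77 CPM), Gja1 (10.8 CPM) and Inhba (1.635 CPM) in KO R4 were not above the control range. Nr5a2 (132 CPM), Kitl (40.1 CPM) and Fshr (3.34 CPM) in KO R4 were above it. The summed clustered protocadherin level of KO R4 was 11.4 CPM, within the 9.74 to 12 CPM of the other KO libraries. The part of these cells in the results was not tested.

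The counts of the other markers are to be read against 23.8% upregulated and 6.56% downregulated over all genes tested. Of 12 neuronal markers, 6 were tested and 1, Rbfox3, was upregulated. The sum was 314 to 605 CPM in control and 290 to 452 CPM in the KO libraries. The untested genes Nefl, Nefm, Dcx, Stmn2, Gap43 and Elavl4 were under 0.1 CPM on average in both groups. The tested genes ranged from Snap25, at 0.191 CPM in control and 0.522 CPM in KO, to Tubb3, at 368 and 212 CPM. At the FDR threshold alone 2 were higher (Rbfox3 and Map2) and 1 was lower (Tubb3). Of 5 immune cell markers, 4 were tested and 2 were upregulated (Ptprc and Cd68). Adgre1 and Csf1r were not called. Their log2 fold changes were 1.55 ± 1.23 (SE), FDR = 0.301, and -1.11 ± 0.84 (SE), FDR = 0.280. The immune sum was 1.02 to 2.32 CPM in control and 3.58 to 5.37 CPM in the KO libraries, without overlap. Of 7 tested theca and stroma markers 0 were called, 1 of 3 tested endothelial markers (Kdr) was downregulated, and the 4 haemoglobin genes had no count. At the FDR threshold alone 2 of the endothelial markers were lower, Kdr and Tek. The log2 fold change of Tek was -0.99 ± 0.16 (SE), FDR = 0.00031. The part of the immune cell RNA in the results was not tested.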

How the data were processed

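Total RNA from 100 GV oocytes per library was sequenced as 150-base paired-end reads. The labels name a TruSeq Stranded Total RNA kit with Ribo-Zero Gold and the study's methods a TruSeq Stranded mRNA kit with depletion of ribosomal RNA. With nf-core/rnaseq, the authors aligned reads by STAR 2.6.1d to GRCm38, and the deposited values are raw counts per gene; the counting tool, its annotation and its strand setting are not given in the sources used here. The authors' own edgeR version was 3.11.

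Counts were analysed as deposited with edgeR 4.0.16 (TMM; genes of at least 0.2 CPM in 2 or more libraries; quasi-likelihood test on 8 libraries without covariates; Benjamini-Hochberg FDR over 19241 genes). DEGs had an FDR of at most 0.05 and a change of at least 2-fold. The study's exact test, DESeq2 1.42.0, other scalings and filters, a replicate block and leaving out each library were alternatives, and the code was checked on simulated data. CPM values use TMM-scaled library sizes. Pooled ratios have exact intervals and shares Wilson intervals (95%); both cover counting error only. The detection floor was 3 counts over the group. Of the table's gene IDs, 98.0% were in GENCODE vM21, which gave positions and the sequence windows.

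Members named with values were the C types, the 3 highest and the 3 tested members of lowest p in each subgroup, and the first and last of each cluster; for other lists, every DEG and the 3 highest genes. Members, lists and this rule were chosen with earlier results of these data known. No sequence is printed.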

Additional observations from a re-analysis of the deposited data

Results flagged for a closer look

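In each group of 4 libraries, the highest or lowest value was called apart when its gap to the nearest other library took more of the group's range than Dixon's 95% limit for 4 values; 128 groups were examined, 13 stood out, and chance gives about 6.4. Groups in which no library had more than 3 counts were not examined. Of the members, Pcdha12 was at 0.296 CPM in control R2 and had no count in the other control libraries. Pcdhgb1 was at 0.434 CPM in KO R1 and at 0 to 0.0549 CPM in the other KO libraries.

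The other 11 concerned genes of the comparison lists. In control R1, Pcdh9 was at 286 CPM (others 187 to 189), Fat3 at 39.6 (24.4 to 24.7), Ankhd1 at 47.1 (25.0 to 26.7), Ik at 223 (164 to 172) and Rnf14 at 278 (183 to 197). In KO R4, Pcdh9 was at 391 CPM (285 to 303), Rnf14 at 389 (316 to 323) and Slc25a2 at 0.613 (0.109 to 0.185). In control R2, Cdh8 was at 9.08 CPM (12 to 12.3) and Dnd1 at 0.296 (0.0535 to 0.0728), and in control R3 Ptk2b was at 3.33 CPM (5.10 to 5.45). Control R1 and KO R4, which held 5 and 3 of these values, were the deepest libraries of their groups.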

How the results depend on the processing

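The count of 9 upregulated members was 9 with the exact test, library size only, RLE, upper quartile, TMM on genes of at least 10 CPM and no fold threshold, 8 with DESeq2 (without Pcdhac1), 10 without a low-count filter (with Pcdhb9), 2 with a filter of 1 CPM in 4 libraries and 5 without control R1 and KO R4 together (chosen after seeing the data). The count of downregulated members was 0 in every setting. Leaving out 1 library gave 6 to 9 upregulated members: 6 without KO R3 and 7 without KO R4, where Pcdhac1, Pcdhga1 and Pcdhga2 failed the filter. The filter of 1 CPM left Pcdhb8 and Pcdhb15 tested, so upregulated alpha, beta and gamma members were then 0, 2 and 0. The gamma count ranged from 0 to 2 over single left-out libraries and was 0 without control R1 and KO R4, where Pcdhac2 (FDR = 0.0781) and Pcdhb11 (FDR = 0.0734) also lost their calls. Pcdha11 passed without KO R4, without control R1 and without both.

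The summed beta log2 ratio of 1.56 was 1.83 with library size only and 1.80 with TMM on genes of at least 10 CPM, scalings that moved the median of all genes by 0.29 and 0.25. With these scalings 6 and 5 regulators were upregulated and 0 and 0 downregulated; with no fold threshold they were 11 and 9. Leaving out single libraries gave 3 to 5 upregulated regulators, the 5 being without control R1.

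The fold change of Pcdhb17 (-0.00) was above 0 with DESeq2 (0.02), library size only (0.29), RLE (0.018), upper quartile (0.10), TMM on genes of at least 10 CPM (0.27), no filter (0.026) and without control R1 and KO R4 (0.37), and from -0.12 to 0.25 over single left-out libraries. Tet3 (-0.05) turned with library size only (0.24), upper quartile (0.052), TMM at 10 CPM (0.20) and the 1 CPM filter (0.024), Pak1 with library size only (0.17), TMM at 10 CPM (0.14) and both libraries out (0.03), Cdh3 (0.18 and 0.14) and Cdh1 (0.11 and 0.077) with the first and the second of these scalings, and Fat1 with both libraries out (-0.008). Over single left-out libraries these ranged from -0.12 to 0.031 for Tet3, -0.24 to 0.11 for Pak1 and -0.076 to 0.24 for Fat1. None of these 6 genes was called, and the cause was not tested.

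The replicate numbers did not pair the libraries: same-numbered deviations correlated at -0.15, -0.10, 0.24 and -0.28. With the replicate block 8 members were upregulated (Pcdhac1 lost, FDR = 0.0710), and Pcdhb17 was at 0.054. The filter of 0.2 CPM left 45 of 59 members untested, 12 of which had no count; 47 were tested without it.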
